A study of Rattus norvegicus with 59 samples.

Results

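The genes that carry a cell through G2 and mitosis were followed in the livers of male Sprague-Dawley rats given a single intraperitoneal injection of a metal salt. The set had 47 genes chosen by name and role, with earlier results of these data known. Of these, 42 were read by at least 1 probe set of an Affymetrix rat whole-genome expression array (59 probe sets in all, of 31042 tested). Kif4a, Tpx2, Ndc80, Anln and Nek2 had no probe set carrying their symbol alone and were not analysed here. Each gene was read on its brightest probe set, and 13 of the 42 genes had more than 1. The 6 exposed groups were rats that received CdCl2 at 1.25 mg/kg (Cd) or Na2Cr2O7 at 20 mg/kg (Cr) and whose livers were taken on day 1, 3 or 7, and each had its own vehicle (saline) controls from the same day. Every group held 5 livers, labelled as biological replicates, except the Cd group of day 1, which held 4. The study left out 1 rat of that group whose array clustered with the unexposed controls. Its liver was then found not to have taken up Cd. The Cr dose is the one given in the sample labels, and the methods of the study say that the high dose was taken for Cr, although another sentence there names a lower figure. Whole liver tissue was assayed, so the RNA of all its cell types was mixed, and the age of the rats is not given in the sources used here.

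Entry into mitosis is driven by the kinase Cdk1 together with the cyclins A2, B1 and B2, and the cell leaves mitosis when the anaphase-promoting complex, with its activator Cdc20, marks cyclin B and securin for destruction. In between, the Aurora and Polo kinases, kinesin motors, the kinetochore and the spindle checkpoint build the spindle and divide the chromosomes, and Ect2, Racgap1 and their partners divide the cell body. Most of these genes are transcribed only in G2 and mitosis and are switched on together by the MuvB complex with B-Myb and Foxm1, and held silent in resting cells by the DREAM complex, which binds a short element called the CHR (cell cycle genes homology region). Few hepatocytes of an adult liver divide at any time, so that the level of these mRNAs in the tissue is widely used as a reading of proliferation. In tissue RNA, fewer dividing cells and less mRNA in each of them cannot be told apart.

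The promoters of the set were inspected because its members moved together. RefSeq sequences (build GRCr8) of 300 bases, running from 250 bases before to 50 bases after the transcription start, were at hand for 41 of the 47 genes (not for Ccna2, Ube2c, Aurkb, Tpx2, Racgap1 and Pbk). For each symbol 1 window was kept, the one with the lowest genomic coordinate where a gene had more. An element said to be absent is therefore absent from that window, and other starts of the gene were not searched. A CHR, written TTTGAA or TTCGAA and searched on both strands, was found in 29 of the 41 promoters (70.7%), whereas it stood in 19.6% of the 27457 promoters of the same length. At least 1 CCAAT box (CCAAT on either strand), the site of the factor NF-Y, was present in 30 of the 41 (73.2%, against 37.7% of all promoters), and 2 or more in 23 of them (56.1%, against 11.4%). Both elements occurred in 23 promoters (56.1%, against 7.9%), and in 2 of these they overlapped by at least 1 base. Such matches are letters in a window and not bound sites, and the genes were chosen by function, so the shares are a description. The promoters of Cdk1, Cdc20 and Ccnb2, genes with some of the largest changes below, are shown next to that of Ccnb1, which had a pair of CCAAT boxes but no CHR in this window, and that of Melk, which had neither and moved least on day 1 after Cd. Other genes went against such an order. Bub1 also had neither element and changed by -2.21 on that day, and Kif20a, with the largest change (-3.10), had no CHR. Melk was also dim and was dropped in both metals by the filter on signal described below. Capitals mark the CHR and CCAAT matches, on either strand.
Cdk1 (chr20:19265043-19265342, plus strand): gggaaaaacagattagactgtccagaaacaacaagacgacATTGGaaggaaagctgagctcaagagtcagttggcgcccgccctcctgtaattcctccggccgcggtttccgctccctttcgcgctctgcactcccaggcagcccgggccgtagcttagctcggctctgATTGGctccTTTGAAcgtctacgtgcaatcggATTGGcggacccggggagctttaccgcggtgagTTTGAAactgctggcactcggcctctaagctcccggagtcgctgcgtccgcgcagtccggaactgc
Cdc20 (chr5:137255750-137256049, minus strand): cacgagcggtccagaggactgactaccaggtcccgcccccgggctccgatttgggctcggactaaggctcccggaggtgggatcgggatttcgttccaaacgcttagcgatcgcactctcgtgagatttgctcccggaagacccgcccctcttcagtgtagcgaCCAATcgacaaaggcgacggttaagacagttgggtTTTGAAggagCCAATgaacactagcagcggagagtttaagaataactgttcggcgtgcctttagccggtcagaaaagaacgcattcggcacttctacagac
Ccnb2 (chr8:79981609-79981908, minus strand): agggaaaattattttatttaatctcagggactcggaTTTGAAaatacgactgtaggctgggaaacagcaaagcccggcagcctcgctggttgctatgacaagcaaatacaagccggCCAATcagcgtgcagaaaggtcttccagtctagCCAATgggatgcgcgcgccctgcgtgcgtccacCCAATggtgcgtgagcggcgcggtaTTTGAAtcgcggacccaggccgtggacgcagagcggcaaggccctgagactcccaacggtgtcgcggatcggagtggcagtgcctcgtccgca
Ccnb1 (chr2:33655176-33655475, minus strand): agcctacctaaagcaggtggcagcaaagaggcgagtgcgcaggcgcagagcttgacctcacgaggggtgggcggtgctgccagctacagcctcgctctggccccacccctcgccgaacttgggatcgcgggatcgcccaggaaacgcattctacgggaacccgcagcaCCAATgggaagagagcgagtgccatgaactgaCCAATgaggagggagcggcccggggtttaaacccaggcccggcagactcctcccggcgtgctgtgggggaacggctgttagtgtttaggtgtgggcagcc
Melk (chr5:63335901-63336200, plus strand): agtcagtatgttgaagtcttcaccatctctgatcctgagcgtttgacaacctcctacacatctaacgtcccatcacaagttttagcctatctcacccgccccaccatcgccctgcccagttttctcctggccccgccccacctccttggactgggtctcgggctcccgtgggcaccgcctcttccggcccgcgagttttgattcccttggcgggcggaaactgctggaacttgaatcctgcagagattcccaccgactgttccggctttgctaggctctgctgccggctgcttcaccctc

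In Cdk1 the CHR closest to the start lay at -16 and the 2 closest CCAAT boxes began at -81 and -49, and in Ccnb1 the boxes began at -82 and -50, counted from the start at +1. The 22 measured genes with both elements had, on day 1 after Cd, a median of -2.12 in log2 fold change (range -3.06 to -1.12), and the 15 measured genes with a promoter sequence but not both had -1.65 (-3.10 to -0.95), so the ranges overlapped almost fully.

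Values are log2 units after robust multi-array averaging (RMA), on which 1 unit is a doubling of signal, and a difference of log2 values is a log2 fold change. Tests were moderated linear models (limma) over all 31042 probe sets, with Benjamini-Hochberg adjustment, and a gene was called when its adjusted p was 0.05 or less. Errors of fold changes are standard errors. The number of arrays limits the precision. Hepatocyte markers averaged 13.6 to 13.8 in every group in log2 units, while T cell markers averaged 4.35 to 4.61 and B cell markers 3.96 to 4.15. The 3' minus 5' difference in signal, a reading of RNA integrity, averaged 0.32 to 0.57 for Gapdh and 1.72 to 2.16 for actin over the 12 groups.

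Averaged over the 42 genes, the level of a liver ranged between 4.55 and 7.73. After Cd the mean level was 5.30 ± 0.34 on day 1, against 7.31 ± 0.29 in same-day controls (SD, n = 4 and 5), 6.36 ± 0.31 on day 3, against 6.19 ± 0.26, and 5.67 ± 0.69 on day 7, against 6.22 ± 0.17 (n = 5 each). After Cr it was 6.73 ± 0.54 on day 1, against 7.33 ± 0.12 in controls, 6.51 ± 0.43 on day 3, against 6.45 ± 0.27, and 6.63 ± 0.55 on day 7, against 5.60 ± 0.59 (n = 5 each). Control livers thus differed by day of harvest, while the means of the 3 Cr-exposed groups lay between 6.51 and 6.73.

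**Figure D1:**
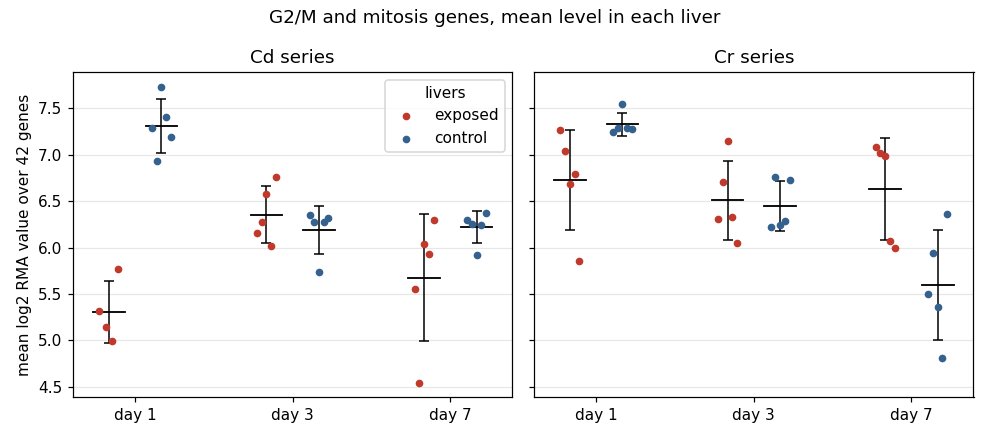
Mean log2 RMA value over the 42 G2/M and mitosis genes (vertical axis) in each liver, by day (horizontal axis), for the Cd series (left) and the Cr series (right). Points are livers (red exposed, blue control), and bars are the group mean ± SD. The 4 Cd livers of day 1 (4.99 to 5.76) lie below all 5 of their controls (6.93 to 7.73), and control livers are highest on day 1 in both series.

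On day 1 after Cd, all 42 genes were lower than in same-day controls, in every case with complete separation of the 4 exposed from the 5 control livers. The exposed liver that the study left out, after its array clustered with those of controls, is not among these 4. The call lower was made for 42 of 42 genes, against 5.33% of all probe sets, and values without overlap (exposed below control) occurred for 42 of 42 genes, against 5.13% of all probe sets. The median log2 fold change was -2.06, or a 4.17-fold lower signal, with a range of -3.10 to -0.95, while the median over all probe sets was -0.01. The largest changes were those of Kif20a, a kinesin needed for cytokinesis, at -3.10 ± 0.35 (limma adjusted p = 3.4e-07), Cdkn3, a phosphatase that acts on cyclin-dependent kinases, at -3.06 ± 0.50 (limma adjusted p = 5.81e-05), Ect2, the exchange factor that activates RhoA at the cleavage furrow, at -3.05 ± 0.43 (limma adjusted p = 9.08e-06), Cdc20 at -2.94 ± 0.43 (limma adjusted p = 1.6e-05) and Ccnb2 (cyclin B2) at -2.90 ± 0.40 (limma adjusted p = 5.04e-06). The smallest was that of Melk, a kinase of dividing cells, at -0.95 ± 0.14 (limma adjusted p = 1.99e-05).

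The cyclins and their kinase, which drive mitotic entry, were grouped with the phosphatase Cdkn3. This group had the largest median of those formed by role (5 genes, -2.87). Cdk1 read 6.21, 5.69, 5.42 and 6.98 in exposed livers, against 8.97, 8.54, 9.32, 9.0 and 8.74 in control livers (log2 fold change -2.84 ± 0.43, limma adjusted p = 2.34e-05). Its partner Ccnb1 (cyclin B1) read 5.32, 5.65, 4.93 and 6.83 in exposed livers, against 8.57, 8.15, 8.85, 8.88 and 8.31 in control livers (log2 fold change -2.87 ± 0.40, limma adjusted p = 5.9e-06). Ccna2 (cyclin A2), which acts in S phase and G2, read 6.04, 5.90, 5.47 and 6.67 in exposed livers, against 8.10, 8.07, 8.53, 8.36 and 8.12 in control livers (log2 fold change -2.22 ± 0.38, limma adjusted p = 0.000104). In each of these the fourth exposed liver (replicate 5) was the highest of its group and still below the lowest control.  Cdc20 and Ube2c, the activator and the ubiquitin-conjugating enzyme of the anaphase-promoting complex, were of similar size (-2.94 and -2.49). Cdc20 read 5.32, 5.11, 5.08 and 6.83 in exposed livers, against 8.66, 7.86, 9.31, 8.49 and 8.31 in control livers, the fourth exposed liver again being the highest.

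Among the proteins of the spindle and the chromosome surface (9 genes, median -2.06), Mki67, which coats mitotic chromosomes and is the common histological marker of proliferation, read 5.54, 5.75, 5.51 and 6.49 in exposed livers, against 7.82, 8.12, 8.38, 8.21 and 8.06 in control livers (log2 fold change -2.30 ± 0.34, limma adjusted p = 1.44e-05). Top2a, the topoisomerase that untangles sister chromatids, read 5.94, 5.85, 5.71 and 6.64 in exposed livers, against 7.80, 7.85, 8.67, 8.02 and 8.16 in control livers (log2 fold change -2.06 ± 0.26, limma adjusted p = 2.08e-06). The 8 mitotic kinases ranged between -2.21 (Bub1, a checkpoint kinase) and -0.95 (Melk). Aurkb, the kinase of the chromosomal passenger complex, read 5.13, 4.96, 5.26 and 5.74 in exposed livers, against 6.87, 6.62, 7.33, 7.08 and 6.89 in control livers (log2 fold change -1.69 ± 0.24, limma adjusted p = 1.2e-05). Plk1, the Polo kinase of mitotic entry and spindle poles, changed less, with 5.75, 5.69, 5.55 and 5.96 in exposed livers, against 7.17, 6.78, 7.32, 6.80 and 6.68 in control livers (log2 fold change -1.21 ± 0.14, limma adjusted p = 3.44e-07). The 8 kinesins had a median of -1.75, the 4 genes of the kinetochore and checkpoint -2.12, the 3 of cytokinesis -2.46, and the passenger complex partners Birc5 (survivin) and Cdca8 (borealin) -1.24 each. Of the 59 probe sets of these genes, 56 were called lower and none higher.

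**Figure D2:**
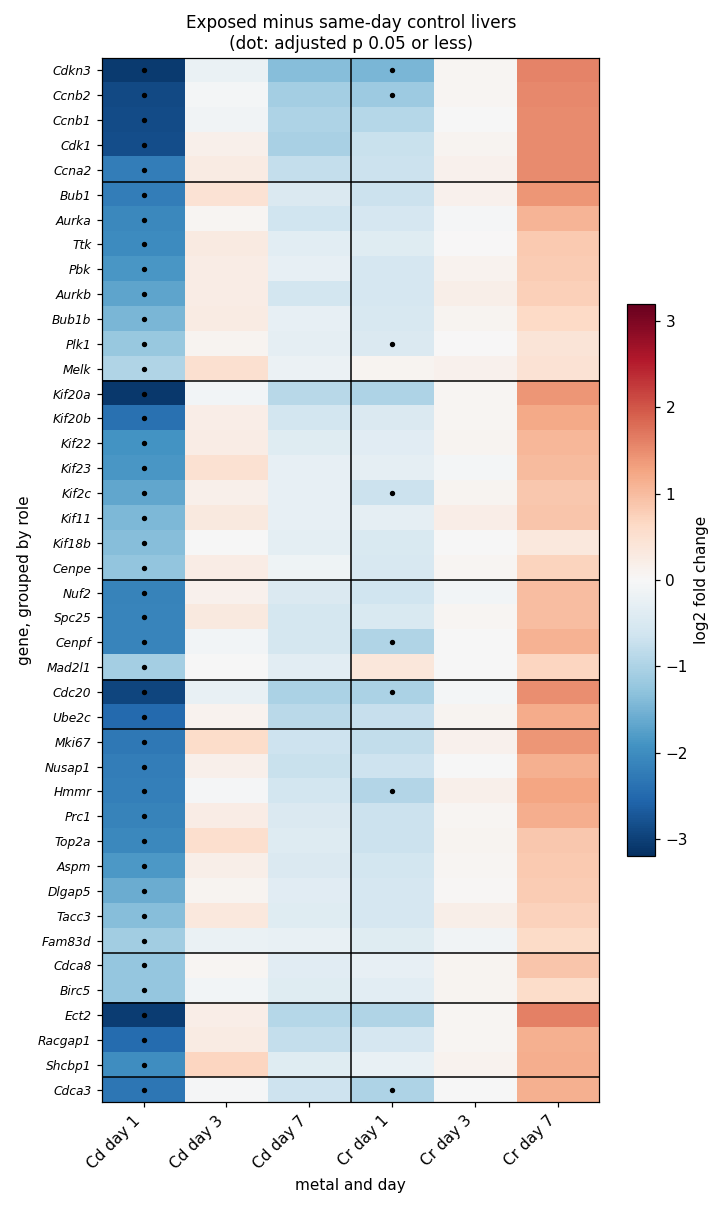
Log2 fold change, exposed minus same-day control livers (colour), of the 42 genes (rows, grouped by role, the groups parted by lines) for each metal and day (columns). Black dots mark genes called (limma). All 42 genes have a dot in the Cd day 1 column and 8 in the Cr day 1 column, and the Cr day 7 column is positive throughout without a call.

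The 4 exposed livers of day 1 were also low against controls of later days: for 15 of 42 genes all 4 lay below all 10 control livers of days 3 and 7, against 3.43% of all probe sets. Markers of other cells moved in the same livers. All 6 measured Kupffer cell and macrophage markers were called lower on day 1 after Cd (median -3.49), against 5.33% of all probe sets. Their mean level was 4.74 to 7.32 in exposed livers and 8.41 to 8.84 in controls. Of 3 neutrophil markers 2 were called higher, against 6.4% of all probe sets (means 7.03 to 8.11 in exposed livers and 4.45 to 5.37 in controls). Replicate 5, with the highest mitosis gene mean (5.76, against 4.99 to 5.32 in the other 3 exposed livers), was also the one with macrophage markers at 7.32, against 4.74 to 4.96. The part of these cell types in the fall of the mitosis genes was not tested. Hepatocyte markers had 3 of 7 calls lower and none higher, with means of 13.5 to 13.7 in exposed livers and 13.8 in controls. Erythroid markers had 2 of 5 calls lower, with means of 7.63 to 8.37 in exposed livers and 8.11 to 8.97 in controls. Both stand against the 5.33% of all probe sets called lower. Without replicate 5, 42 of 42 genes were called lower and the median was -2.25. Against the pooled controls of all 3 days, 41 were called lower and the median was -1.21.

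Other genes of the pathway were read from a second list of 72 G2/M and mitosis genes, of which 62 were measured. On day 1 after Cd 42 of the 62 were called lower and 1 higher, with a median of -0.67 (-2.09 to 0.30). The largest were the kinetochore genes Spc24 (-2.09 ± 0.36, limma adjusted p = 0.000114), Ska1 (-1.97 ± 0.19, limma adjusted p = 3.66e-08) and Cenpw (-1.89 ± 0.24, limma adjusted p = 1.71e-06), together with Pttg1 (securin) at -2.05 ± 0.24 (limma adjusted p = 4.85e-07). The 1 gene called higher was Mybl2 (B-Myb) at 0.30 ± 0.09 (limma adjusted p = 0.0304), and Foxm1, the forkhead factor that activates G2/M genes, was at -0.97 ± 0.14 (limma adjusted p = 1.95e-05). Of 23 measured brakes and repressors of the cell cycle, 2 were called higher, against 6.4% of all probe sets, and 5 lower, against 5.33%. That list also held Lin9, Lin37, Lin52 and Lin54, subunits of the MuvB complex named above, so not all of its genes are only brakes. Gadd45b, a stress-induced inhibitor of Cdk1, was at 1.01 ± 0.19 (limma adjusted p = 0.000313), Rbl1 (p107, a DREAM subunit) at -0.61 ± 0.16 (limma adjusted p = 0.00987), Wee1, the kinase that holds Cdk1 inactive, at -0.52 ± 0.11 (limma adjusted p = 0.00112) and the repressor E2f8 at -0.44 ± 0.11 (limma adjusted p = 0.00811). Cdkn1a, the inhibitor p21 and a target of p53, was not called, at -0.55 ± 0.20 (limma adjusted p = 0.0742). The MCM helicase and origin licensing genes, which prepare DNA for replication in G1, had 2 calls higher and 2 lower among 19 measured and a median of -0.08. None of the 6 MCM helicase subunits Mcm2 to Mcm7 was called, and their log2 fold changes lay between -0.57 (Mcm6) and 0.32 (Mcm2).

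On day 1 after Cr, 8 of 42 genes were called lower, against 11.1% of all probe sets, and none was called higher. Of the 59 probe sets of these genes, 17 were called lower and none higher. The log2 fold change was negative in 40 genes and positive in 2. At an unadjusted p of 0.05 or less 27 genes were lower, against 17.4% of all probe sets. In 10 of 42 genes all 5 exposed livers lay below all 5 controls, against 5.47% of all probe sets. The median log2 fold change was -0.55, with a range of -1.45 to 0.37, and the median over all probe sets was -0.03. The genes called with the largest changes were Cdkn3 at -1.45 ± 0.41 (limma adjusted p = 0.00826), Ccnb2 at -1.15 ± 0.36 (limma adjusted p = 0.0171), Cdc20 at -1.0 ± 0.35 (limma adjusted p = 0.034), Cdca3, a trigger of mitotic entry, at -1.0 ± 0.32 (limma adjusted p = 0.0189), and the kinetochore protein Cenpf at -0.96 ± 0.29 (limma adjusted p = 0.0129). Hmmr, Kif2c and Plk1 were the other three.

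Cdc20 read 7.90, 8.06, 7.48, 7.28 and 6.33 in exposed livers, against 8.44, 8.23, 8.90, 8.23 and 8.28 in control livers, and the groups did not overlap. For Plk1 the values were 7.04, 6.99, 6.61, 6.84 and 6.11 in exposed livers, against 7.21, 7.34, 7.37, 7.02 and 6.98 in control livers (log2 fold change -0.47 ± 0.16, limma adjusted p = 0.0305), with the first 2 exposed livers just inside the control range. Cdk1 read 8.81, 8.63, 8.08, 7.94 and 7.21 in exposed livers, against 9.02, 8.74, 9.10, 8.67 and 8.76 in control livers (log2 fold change -0.72 ± 0.38, limma adjusted p = 0.166), and the first exposed liver was within the control range. Ccnb1 gave 8.40, 7.78, 7.61, 7.63 and 6.27 in exposed livers, against 8.37, 8.44, 8.64, 8.15 and 8.69 in control livers (log2 fold change -0.92 ± 0.36, limma adjusted p = 0.0609), with overlap in the same liver. Ccna2 gave 8.36, 8.13, 7.81, 7.80 and 6.72 in exposed livers, against 8.10, 8.48, 8.72, 8.28 and 8.61 in control livers (log2 fold change -0.68 ± 0.36, limma adjusted p = 0.171), with overlap in the first 2 livers. Mki67 gave 7.85, 8.04, 7.30, 7.43 and 6.57 in exposed livers, against 7.97, 8.33, 8.51, 8.23 and 8.08 in control livers (log2 fold change -0.78 ± 0.37, limma adjusted p = 0.12). Replicate 5 was the lowest exposed liver in each of these genes. Top2a gave 7.74, 7.81, 7.31, 7.31 and 6.6 in exposed livers, against 8.10, 8.05, 8.42, 8.03 and 7.57 in control livers (log2 fold change -0.68 ± 0.28, limma adjusted p = 0.0715), and the same liver was lowest. Aurkb gave 7.01, 6.62, 6.66, 6.52 and 5.67 in exposed livers, against 6.87, 7.14, 7.25, 6.97 and 6.98 in control livers (log2 fold change -0.55 ± 0.23, limma adjusted p = 0.0777).

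Replicate 5 of the Cr group of day 1 stood apart in several respects. Its mean over the 42 genes was 5.86, against 6.69 to 7.27 in the other 4 exposed livers and 7.25 to 7.55 in controls. Its Cdkn1a value was 7.88, where the other exposed livers had 9.55 to 10.17 and the controls 8.15 to 8.49. Without this liver 2 of the 42 genes were called, Cdkn3 as lower and Mad2l1, a spindle checkpoint protein, as higher, and the median was -0.38. Without replicate 1 of the same group, the exposed liver with the highest mean (7.27), 18 genes were called lower, and 5 without exposed replicate 3 or control replicate 3. Against the pooled controls of all 3 days, the comparison used in the study, no gene was called lower and 2 (Mad2l1 and Melk) were called higher, with a median of 0.24. Control livers of days 3 and 7 had lower levels than those of day 1, as given below.

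Of the 19 measured MCM and origin licensing genes, 12 were called higher on day 1 after Cr, against 14.7% of all probe sets, and 1 lower, against 11.1% (median 0.64), and the 6 helicase subunits were all among the 12: Mcm2 at 1.03 ± 0.18 (limma adjusted p = 6.94e-05), Mcm3 at 0.69 ± 0.15 (limma adjusted p = 0.000929), Mcm4 at 1.17 ± 0.16 (limma adjusted p = 2.16e-06), Mcm5 at 0.68 ± 0.17 (limma adjusted p = 0.00374), Mcm6 at 1.09 ± 0.23 (limma adjusted p = 0.000649) and Mcm7 at 0.88 ± 0.13 (limma adjusted p = 5.84e-06). Their list mean was 6.51 to 7.21 in exposed livers and 6.19 to 6.45 in controls, without overlap. Of the 62 other G2/M and mitosis genes 13 were called lower and 5 higher (median -0.16). Cenpw was at -1.15 ± 0.30 (limma adjusted p = 0.00464), Spc24 at -0.89 ± 0.31 (limma adjusted p = 0.0329) and Pttg1 at -0.78 ± 0.23 (limma adjusted p = 0.0129), while Zwint, a kinetochore scaffold, was at 0.84 ± 0.15 (limma adjusted p = 9.72e-05). Among the 23 brakes, 4 were called higher and 3 lower, against 14.7% and 11.1% of all probe sets. Ccng1 (cyclin G1), a target of p53, was at 1.42 ± 0.21 (limma adjusted p = 7.78e-06) with 10.09, 9.30, 9.76, 10.25 and 8.49 in exposed livers, against 7.95, 8.08, 8.24, 8.41 and 8.11 in control livers. Cdkn1a was at 1.2 ± 0.27 (limma adjusted p = 0.00127), Cdkn1c (p57) at -0.62 ± 0.13 (limma adjusted p = 0.000339) and Rbl2 (p130, the DREAM subunit of resting cells) at -0.59 ± 0.10 (limma adjusted p = 8.1e-05). Macrophage markers, low after Cd, had 1 call higher and none lower of 6, and 2 of 3 neutrophil markers were called higher (means 4.84 to 6.07 in exposed livers and 4.15 to 4.87 in controls), as were 2 of 4 cholangiocyte markers (means 5.70 to 6.44 in exposed livers and 5.42 to 5.67 in controls). Their part in the mitosis gene values was not tested.

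**Figure D3:**
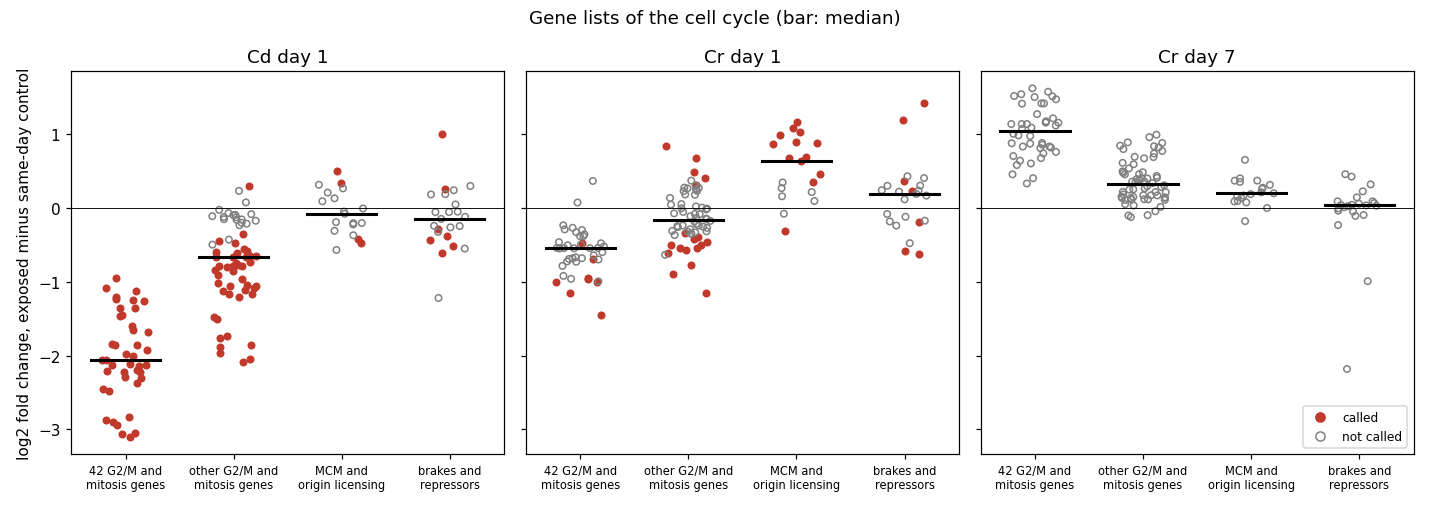
Log2 fold change, exposed minus same-day control livers (vertical axis), of single genes (points) in 4 lists of cell cycle genes, on day 1 after Cd, day 1 after Cr and day 7 after Cr. Filled red points are called genes (limma), open points are not, and bars are list medians. The median of the 42 genes is -2.06, -0.55 and 1.04 in the 3 panels, and that of the MCM and origin licensing genes is -0.08, 0.64 and 0.20.

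On day 3 neither metal gave a call among the 42 genes. After Cd 0 of 42 were called (limma), against 0.638% of all probe sets, 4 had an unadjusted p of 0.05 or less, against 9.77% of all probe sets, and the median was 0.18 (-0.25 to 0.68). The lowest unadjusted p belonged to Melk (log2 fold change 0.50 ± 0.13, limma adjusted p = 0.0839) and Shcbp1, a protein of the midbody (log2 fold change 0.68 ± 0.22, limma adjusted p = 0.204). Shcbp1 read 5.20, 5.43, 5.95, 5.33 and 5.66 in exposed livers, against 5.04, 4.99, 4.42, 4.64 and 5.09 in control livers, and the groups did not overlap. Melk read 4.48, 4.55, 5.05, 4.40 and 4.55 in exposed livers, against 4.29, 4.27, 3.93, 4.00 and 4.04 in control livers, again without overlap. In 3 of the 42 genes (Kif23, Melk and Shcbp1) all exposed livers lay above all controls, against 1.53% of all probe sets. A further probe set of Kif23 had the opposite sign, and 10 of the 17 further probe sets of the 42 genes had the sign of the brightest. Melk was among the genes dropped by the filter on signal. Melk and Shcbp1 were the ones called when arrays were weighted by quality. Mcm2, Mcm3, Mcm4 and Mcm6 were called higher on that day (4 of 19 measured genes of the list, against 0.564% of all probe sets). Cdk1 read 7.59, 7.73, 7.87, 7.22 and 8.24 in exposed livers, against 7.90, 7.77, 6.90, 7.69 and 7.58 in control livers, and the groups overlapped. After Cr 0 of 42 were called (limma), against 0.00322% of all probe sets, none had an unadjusted p of 0.05 or less, and the median was 0.07 (-0.11 to 0.22). Kif11, the kinesin that pushes spindle poles apart, and Tacc3, a spindle protein, had the lowest unadjusted p there (log2 fold changes 0.22 ± 0.21 and 0.18 ± 0.22). The median standard error of the 42 genes was 0.28 in that comparison. Cdk1 read 7.66, 8.27, 8.76, 7.67 and 7.24 in exposed livers, against 7.60, 8.36, 7.45, 7.49 and 8.22 in control livers, and the groups overlapped.

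On day 7 after Cd all 42 genes had negative log2 fold changes, and 0 of 42 were called (limma), against 0.0129% of all probe sets. At an unadjusted p of 0.05 or less 26 were lower, against 3.25% of all probe sets. The median was -0.46 (-1.35 to -0.13). The lowest unadjusted p belonged to Ccnb2 (log2 fold change -1.10 ± 0.37, limma adjusted p = 0.627) and Cdkn3 (log2 fold change -1.35 ± 0.47, limma adjusted p = 0.637). One liver, replicate 2, lay far below the rest, with a mean over the 42 genes of 4.55, against 5.56 to 6.30 in the other 4 exposed livers and 5.92 to 6.37 in controls, and it was the lowest of all 59 livers. The same liver had hepatocyte markers at 13.61, against 13.75 to 13.83 in the other 4 exposed livers and 13.77 to 13.84 in controls, fibroblast markers at 8.84, against 7.33 to 8.22 and 7.08 to 7.69, and macrophage markers at 9.04, against 8.20 to 8.84 and 8.11 to 8.89. Its mean correlation with the other arrays of its group was 0.987, against 0.991 to 0.992 for the other 4. Their part in the low mitosis gene values was not tested. Without it the median was -0.24 and 0 of 42 were called (limma), and against pooled controls the median was -0.81. Cdk1 read 6.66, 4.13, 7.36, 7.06 and 7.76 in exposed livers, against 7.77, 7.75, 7.18, 7.71 and 7.76 in control livers (log2 fold change -1.04 ± 0.41, limma adjusted p = 0.701). Mki67 read 6.33, 4.32, 6.88, 6.71 and 7.05 in exposed livers, against 7.02, 6.95, 6.53, 6.87 and 7.17 in control livers (log2 fold change -0.65 ± 0.32, limma adjusted p = 0.734). Ccnb1 read 6.05, 4.40, 6.99, 6.97 and 7.30 in exposed livers, against 7.35, 7.50, 7.06, 7.24 and 7.46 in control livers (log2 fold change -0.98 ± 0.37, limma adjusted p = 0.694). The second exposed liver was the lowest in each, and exposed livers 3 to 5 lay in or near the control range. Ccna2 read 6.19, 4.10, 6.84, 6.90 and 7.07 in exposed livers, against 6.95, 7.02, 6.45, 7.15 and 7.32 in control livers (log2 fold change -0.76 ± 0.35, limma adjusted p = 0.733). Cdc20 read 5.76, 4.40, 6.92, 6.79 and 7.51 in exposed livers, against 7.54, 7.28, 7.06, 7.30 and 7.32 in control livers (log2 fold change -1.02 ± 0.41, limma adjusted p = 0.701), with the first liver also low. Top2a, Aurkb and Plk1 had log2 fold changes of -0.40 ± 0.25, -0.59 ± 0.23 and -0.29 ± 0.13. No gene had groups without overlap.

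On day 7 after Cr the direction was the opposite, with positive log2 fold changes for all 42 genes, but again 0 of 42 were called (limma), against 0.119% of all probe sets. At an unadjusted p of 0.05 or less 41 were higher, against 4.49% of all probe sets, and the median was 1.04 (0.33 to 1.62), a 2.06-fold higher signal. In 2 genes, Cdca8 and Mad2l1, all 5 exposed livers lay above all 5 controls, against 1.2% of all probe sets. The lowest unadjusted p belonged to Bub1 (log2 fold change 1.42 ± 0.31, limma adjusted p = 0.06) and Ect2 (log2 fold change 1.62 ± 0.37, limma adjusted p = 0.0767). Both groups were spread widely. Cdk1 read 8.61, 8.56, 8.48, 7.23 and 7.27 in exposed livers, against 6.76, 7.17, 6.16, 4.91 and 7.61 in control livers (log2 fold change 1.5 ± 0.38, limma adjusted p = 0.114). Ccnb1 read 8.22, 7.99, 8.30, 7.18 and 6.98 in exposed livers, against 5.91, 6.95, 5.79, 4.93 and 7.49 in control livers (log2 fold change 1.52 ± 0.36, limma adjusted p = 0.0927). Ccna2 read 8.08, 8.11, 8.05, 6.86 and 6.89 in exposed livers, against 5.99, 6.67, 5.70, 4.73 and 7.33 in control livers (log2 fold change 1.51 ± 0.36, limma adjusted p = 0.0906). In each, the first 3 exposed livers were above all controls and the last 2 within the control range. Mki67 gave 7.93, 8.0, 7.82, 6.47 and 6.40 in exposed livers, against 5.91, 6.5, 5.65, 4.42 and 7.05 in control livers (log2 fold change 1.42 ± 0.37, limma adjusted p = 0.127). Cdc20 gave 8.01, 7.88, 7.93, 6.99 and 6.67 in exposed livers, against 5.90, 6.45, 5.75, 4.59 and 7.41 in control livers (log2 fold change 1.48 ± 0.35, limma adjusted p = 0.0927), and the same 3 exposed livers were above all controls in both. Top2a gave 7.35, 7.63, 7.36, 6.35 and 6.57 in exposed livers, against 5.96, 6.84, 5.87, 5.34 and 6.94 in control livers (log2 fold change 0.86 ± 0.28, limma adjusted p = 0.282). Aurkb gave 6.34, 6.63, 6.62, 5.89 and 5.80 in exposed livers, against 5.59, 5.57, 5.38, 4.80 and 6.13 in control livers (log2 fold change 0.76 ± 0.23, limma adjusted p = 0.222). Plk1 was smaller, with 6.89, 6.87, 6.63, 6.39 and 6.16 in exposed livers, against 6.05, 6.37, 6.07, 5.95 and 6.48 in control livers (log2 fold change 0.41 ± 0.16, limma adjusted p = 0.443).

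Single livers decided whether this difference passed. The count called higher was 19 without control replicate 5, the control liver with the highest mean (6.37, against 4.81 to 5.95 in the other 4), 15 without exposed replicate 5 and 3 (Bub1, Nusap1 and Ect2) without exposed replicate 4, the exposed livers with the lowest means (6.0 and 6.07, against 6.99 to 7.08 in the other 3), and 0 without control replicate 4, the lowest control. With arrays weighted by quality 11 genes were called higher. Against the pooled controls of 3 days the median was 0.18 and no gene was called. Of the 62 other G2/M and mitosis genes, with a median of 0.32, none was called (limma). At an unadjusted p of 0.05 or less 34 of them were higher, against 4.49% of all probe sets, and none was lower. Cks2, a Cdk1 subunit, had the lowest p (log2 fold change 0.74 ± 0.18, limma adjusted p = 0.0979). Of the 23 brakes none was called (limma) and 6 had an unadjusted p of 0.05 or less (3 higher, 3 lower). Of all 31042 probe sets, 1393 were higher and 1243 lower at that p. The nearest brake was Gadd45a, a stress-induced inhibitor of Cdk1 (log2 fold change -0.99 ± 0.22, limma adjusted p = 0.0564). The MCM and origin licensing list had a median of 0.20 and no call, with 7 of 19 genes at an unadjusted p of 0.05 or less, against the same counts over all probe sets.

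**Figure D4:**
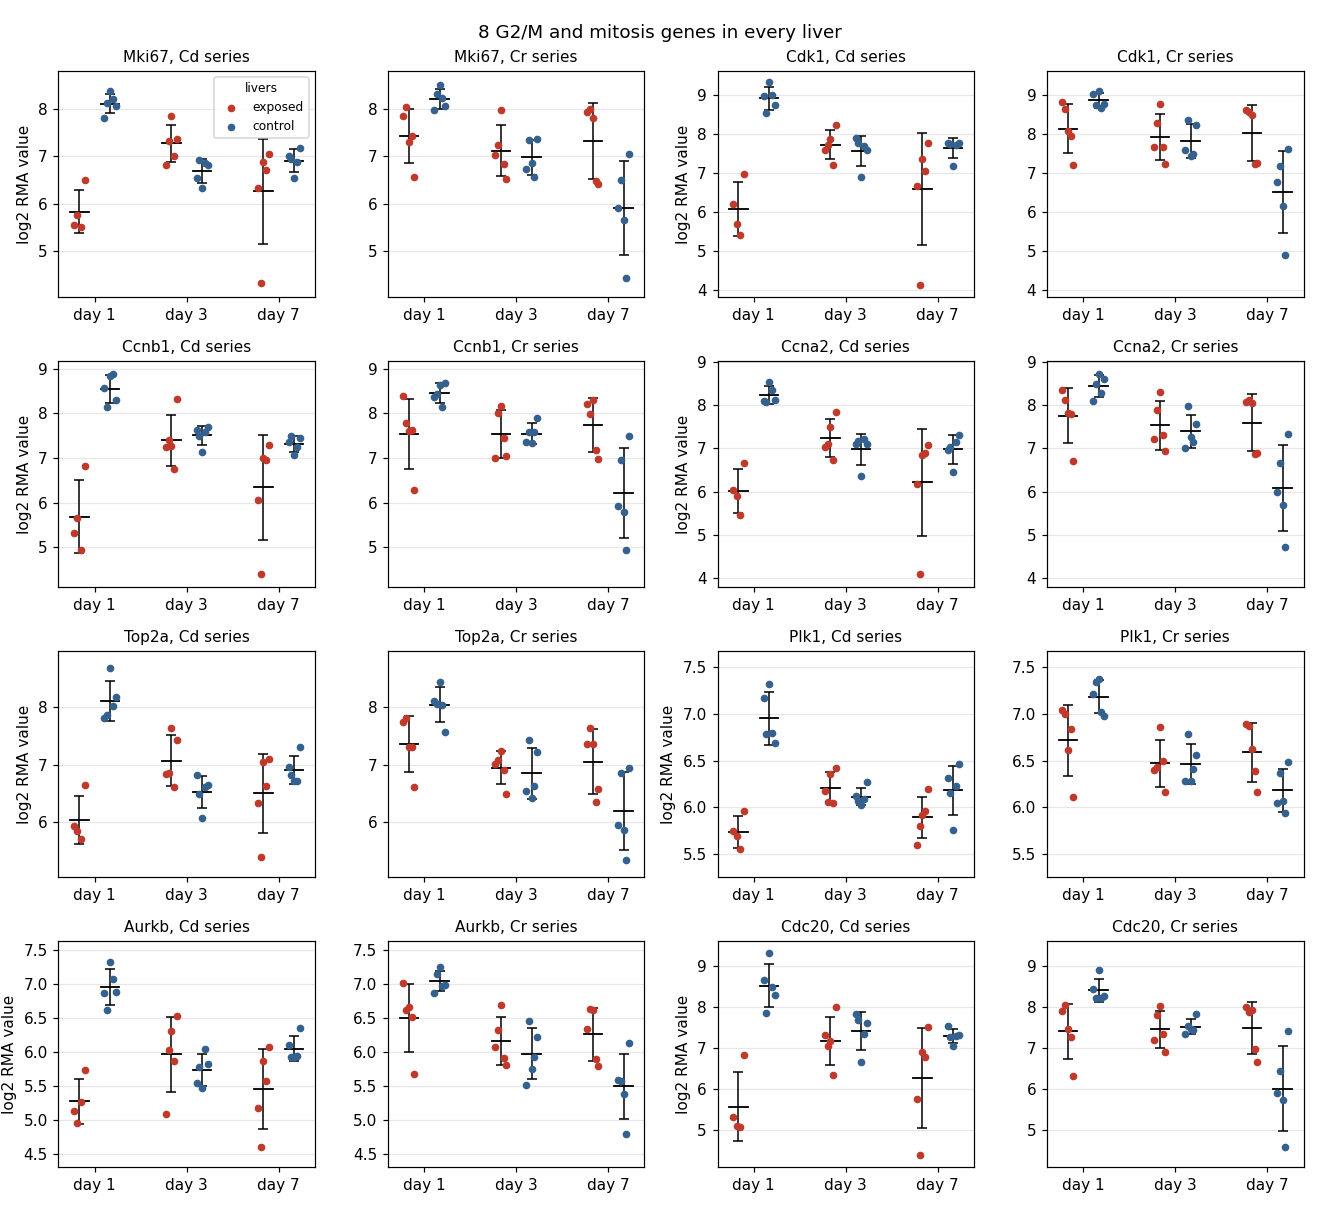
Log2 RMA values (vertical axes) of Mki67, Cdk1, Ccnb1, Ccna2, Top2a, Plk1, Aurkb and Cdc20 in every liver of the Cd and Cr series, by day (horizontal axes). Points are livers (red exposed, blue control), and bars are group means ± SD, with the same vertical range for a gene in both series. In each of the 8 genes the Cd livers of day 1 lie below their controls, the second Cd liver of day 7 is the lowest of its group in 7 of the 8 (not in Plk1), and the fourth Cr control liver of day 7 is the lowest of its group in all 8.

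Vehicle control livers, which received no metal, also differed between days, with the highest levels on day 1 in both series. In the Cd series, day 3 controls were lower than day 1 controls for 28 of 42 genes called, against 0.412% of all probe sets, with a median of -1.16 (-1.57 to -0.56). Day 7 controls were lower than day 1 controls for 24 genes called, against 0.312% of all probe sets, with a median of -1.17, and in all 42 genes without overlap, against 0.941% of all probe sets. Between days 7 and 3 the median was 0.02 and 0 of 42 were called (limma), against 0% of all probe sets, and none had an unadjusted p of 0.05 or less. Top2a (-1.57 ± 0.25, limma adjusted p = 0.00153), Shcbp1 (-1.56 ± 0.22, limma adjusted p = 0.00115), Bub1 (-1.44 ± 0.26, limma adjusted p = 0.00494), Mki67 (-1.43 ± 0.32, limma adjusted p = 0.0305) and Ube2c (-1.40 ± 0.31, limma adjusted p = 0.0306) had the largest called changes on day 3. On day 7 they were Shcbp1 (-1.44 ± 0.22), Bub1 (-1.42 ± 0.26), Hmmr (-1.32 ± 0.28), which binds hyaluronan and the spindle, and the kinesins Kif22 (-1.27 ± 0.20) and Kif20b (-1.25 ± 0.26). Top2a was 6.81, 6.48, 6.08, 6.61 and 6.65 in day 3 controls and 6.96, 6.83, 6.72, 6.72 and 7.30 in day 7 controls, against 7.80, 7.85, 8.67, 8.02 and 8.16 in day 1 controls. The count of day 3 was 18 without control replicate 3 or 4 of day 1 or replicate 3 of day 3, and that of day 7 was 15 without replicate 3 or 4 of day 1.

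In the Cr series the levels were lowest in day 7 controls. Day 7 controls were lower than day 1 controls for 41 of 42 genes called, against 0.619% of all probe sets, Melk being the exception, and in all 42 genes without overlap, against 1.64% of all probe sets. The median was -1.75 (-2.54 to -0.81), a 3.37-fold lower signal. The largest changes were those of Cdkn3 (-2.54 ± 0.41, limma adjusted p = 0.000506), Ccnb2 (-2.45 ± 0.36, limma adjusted p = 0.00039), Cdc20 (-2.40 ± 0.35, limma adjusted p = 0.00039), Ccna2 (-2.36 ± 0.36, limma adjusted p = 0.00039) and Ect2 (-2.35 ± 0.37, limma adjusted p = 0.00047). Ccnb2 was 6.58, 6.83, 6.17, 5.64 and 7.60 in day 7 controls, against 8.74, 9.09, 9.21, 8.79 and 9.22 in day 1 controls. Of the 192 probe sets called lower among all 31042, 52 belonged to these genes. Day 3 controls lay in between. Among the 59 probe sets of these genes 2 were called lower than in day 1 controls. Day 3 controls lay below day 1 controls without overlap in 38 of 42 genes, against 0.918% of all probe sets. Against day 1 they had a median of -0.90 and 0 of 42 called (limma), against 0.0193% of all probe sets, with 42 of 42 lower at an unadjusted p of 0.05 or less, against 3.47% of all probe sets, Aurkb (log2 fold change -1.07 ± 0.23, limma adjusted p = 0.122) and Plk1 (log2 fold change -0.72 ± 0.16, limma adjusted p = 0.143) having the lowest p. Day 7 controls against day 3 controls had a median of -0.84, with 0 of 42 called (limma), against 0% of all probe sets, and 38 lower at an unadjusted p of 0.05 or less, against 2.87% of all probe sets. Cdc20 (log2 fold change -1.51 ± 0.35, limma adjusted p = 0.327) and Ccnb2 (log2 fold change -1.48 ± 0.36, limma adjusted p = 0.327) were the nearest. The day 1 controls enter both these comparisons and the day 1 comparisons with exposed livers, so the values stand side by side and were not set against each other. Day of harvest in controls cannot be told apart from age, from the time since the saline injection or from any handling that went with the day.

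The differences between days were tested on the exposed minus control effects themselves. The effect of Cd was higher on day 3 than on day 1 for 42 of 42 genes called, against 2.86% of all probe sets (median difference 2.26), and higher on day 7 than on day 1 for 36, against 2.2% (median 1.57). Mad2l1, Aurkb, Ccna2, Cdkn3, Cdk1 and Cdc20 were the 6 genes not called on day 7. For Cr, day 3 against day 1 gave 0 of 42 called (limma), against 11.4% of all probe sets in either direction, with 10 higher at an unadjusted p of 0.05 or less, against 10.3% of all probe sets (median 0.66). Among the 59 probe sets of these genes 4 were called higher there, against 4.52% of all probe sets, and none lower. The effect of Cr on day 7 was higher than on day 1 for 38 of 42 genes called, against 4.82% of all probe sets (median 1.55). Mad2l1, Melk, Cdca8 and Shcbp1 were the exceptions. Cdkn3 had the largest difference (3.03 ± 0.58, limma adjusted p = 0.00102). Control levels enter these differences. From day 1 to day 7 the mean over the 42 genes went from 6.73 to 6.63 in Cr livers and from 7.33 to 5.60 in their controls. From day 1 to day 3 it went from 5.30 to 6.36 in Cd livers and from 7.31 to 6.19 in their controls.

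Between metals, the effect of Cd was lower than that of Cr on day 1 for 34 of 42 genes called, against 7.15% of all probe sets, with a median difference of -1.47 (-2.12 to -0.74). The metals were given at different doses, so this comparison is of these treatments and not of the metals at a matched exposure. The largest called differences were those of Cdk1 (-2.12 ± 0.60, limma adjusted p = 0.0122), Kif20a (-2.10 ± 0.54, limma adjusted p = 0.00551), Ect2 (-2.09 ± 0.59, limma adjusted p = 0.013), Ccnb1 (-1.95 ± 0.56, limma adjusted p = 0.0141) and Cdc20 (-1.94 ± 0.58, limma adjusted p = 0.0191). For the MCM and origin licensing list 11 of 19 genes were called lower in the same comparison. On day 3 the effects gave 0 of 42 called (limma), against 0.0161% of all probe sets, none of the 42 at an unadjusted p of 0.05 or less, and a median difference of 0.11. On day 7 the effect of Cd was lower for 17 of 42 genes called, against 0.126% of all probe sets, with a median of -1.50 and an unadjusted p of 0.05 or less, lower, for all 42, against 4.95% of all probe sets. Cdkn3 (-2.93 ± 0.65, limma adjusted p = 0.0241), Ccnb2 (-2.64 ± 0.54, limma adjusted p = 0.0122), Cdk1 (-2.55 ± 0.58, limma adjusted p = 0.0286), Ect2 (-2.54 ± 0.57, limma adjusted p = 0.0281) and Cdc20 (-2.50 ± 0.56, limma adjusted p = 0.0269) led. The count of day 7 turned on single livers of that day. It was 1 (Ccnb2) without Cd replicate 2, Cr replicate 1 or Cr control replicate 3 or 4. It lay between 2 and 9 without Cr replicate 2 or 3, Cd replicate 1, Cr control replicate 1 or Cd control replicate 1, 2, 4 or 5, and between 30 and 34 without Cr replicate 4 or 5, Cd replicate 5 or Cr control replicate 5.

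Livers of 1 group also differed among themselves along these genes. After group means were taken off, the 861 pairs of genes had correlations of 0.47 to 0.97 over the 59 livers (median 0.82), and none was negative. One component held 85.6% of the sum of squares. Kif20a followed the mean of the other genes most closely (r = 0.96) and Melk least (r = 0.63), with Fam83d, a spindle protein, next (r = 0.68). The mean of the second G2/M list followed the same deviations (r = 0.97). Those of the MCM and origin licensing list (r = 0.60) and of the brakes list (r = 0.47) did so less, and those of the hepatocyte and macrophage markers hardly (r = 0.13 each). These correlations share arrays and normalization and are given as a description.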

How the data were processed

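Total RNA of rat livers was hybridised to 59 Affymetrix expression arrays, and the deposited log2 values had been background-adjusted, normalised and summarised by the authors with RMA in Partek software. RMA compresses differences of dim probe sets, so their fold changes are understated. Control probe sets (57) were set aside, which left 31042. Of these 20826 carried 1 gene symbol in the platform annotation. The 47 genes and the other lists were chosen with earlier results of these data known. A gene was read on the probe set with the highest mean over all arrays.

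Each metal was fitted with its 6 groups in limma 3.58.1 (R 4.3.3, lmFit and eBayes with a variance trend) without a filter, and the metals were compared in 1 fit of all arrays. P-values were adjusted by Benjamini-Hochberg within a comparison. Same-day controls were set as the main comparison, since pooling assumes that control livers do not differ between days, which was itself compared. The script was tested on simulated data. Genes named are 8 chosen by role (Mki67, Cdk1, Ccnb1, Ccna2, Top2a, Plk1, Aurkb and Cdc20), the 5 called genes of largest change in each comparison or, where none was called, the 2 of lowest unadjusted p, and, from the second G2/M list and the brakes, up to 4 called genes or 1. Mcm2 to Mcm7 are given as a complete complex, and other genes were named after their values were seen. Alternatives were pooled controls, a filter keeping as many probe sets as the study detected, no variance trend, array weights, renewed quantile normalisation, an unadjusted p with a fold of 1.8, both metals in 1 fit, the mean of all probe sets of a gene, a replicate block and leaving out each liver.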

Additional observations from a re-analysis of the deposited data

Results flagged for a closer look

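Of 108 groups of livers examined for a value far from the others (member means and the 8 genes chosen by role), 7 held one, where chance gives about 1 in 20 groups. The mean over the 42 genes of Cd control replicate 3 of day 3 was 5.74, against 6.27 to 6.35 in the other 4 livers of its group. That of Cd control replicate 3 of day 7 was 5.92, against 6.25 to 6.37, and that of Cr control replicate 3 of day 1 was 7.55, against 7.25 to 7.29. Single genes held the other four. Mki67 read 4.32 in Cd replicate 2 of day 7, against 6.33 to 7.05 in the other livers of its group. Cdc20 read 6.83 in Cd replicate 5 of day 1, against 5.08 to 5.32. Cdk1 read 7.18 in Cd control replicate 3 of day 7, against 7.71 to 7.77, and Ccna2 read 6.36 in Cd control replicate 3 of day 3, against 7.09 to 7.21.

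Differences between effects were tested in limma models and passed for many of the 42 genes. The effect of Cd was higher on day 3 than on day 1 for 42 genes and higher on day 7 than on day 1 for 36. The effect of Cr was higher on day 7 than on day 1 for 38. The effect of Cd was lower than that of Cr for 34 genes on day 1 and for 17 on day 7. The day 1 livers enter each of the day comparisons of their metal. So do the controls, whose mean levels on days 1, 3 and 7 were 7.31, 6.19 and 6.22 for Cd. For Cr they were 7.33, 6.45 and 5.60, while Cr-exposed livers had 6.73, 6.51 and 6.63.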

How the results depend on the processing

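Against pooled controls the day 1 effect of Cr was turned round in the 8 genes chosen by role, with log2 fold changes of 0.40 for Mki67, 0.40 for Cdk1, 0.13 for Ccnb1, 0.45 for Ccna2, 0.33 for Top2a, 0.11 for Plk1, 0.33 for Aurkb and 0.090 for Cdc20, and 2 of the 42 genes were called (both higher). Pooled controls also turned round small day 3 values, to -0.31 for Cdk1, -0.16 for Ccna2, -0.11 for Top2a, -0.21 for Plk1 and -0.28 for Aurkb after Cd, and to 0.13 for Ccnb1, -0.080 for Top2a, -0.14 for Plk1, -0.013 for Aurkb and 0.14 for Cdc20 after Cr, and Plk1 on day 7 after Cr to -0.022. The mean of all probe sets gave 0.047 for Ccnb1 and 0.025 for Cdc20 on day 3 after Cr, and renewed quantile normalisation gave -0.015 for Plk1 there. The 8 calls of day 1 after Cr became 13 with the filter and 18 with renewed quantile normalisation. On day 7 after Cr array weights gave 11 calls, both metals in 1 fit 3, renewed quantile normalisation 1 (Bub1), and an unadjusted p with a fold of 1.8 gave 28. That last rule gave 8 on day 7 after Cd, and array weights gave 2 on day 3 after Cd. The filter gave 28 calls in the day 7 difference between metals. The cause was not tested.

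The labels state no pairing by replicate number, and the main fit used none. Same-number correlations of deviations lay between -0.12 and 0.26 (mean 0.07). Of 29 exposed livers, each compared with its 5 same-day controls, 12 correlated best with the control of their own number. Whether this reflects a shared source was not tested. With the replicate block 14 genes were called on day 1 after Cr, and no other count moved by more than 1.5 times. Leaving out 1 liver at a time gave 2 to 18 calls for day 1 and 0 to 19 for day 7 after Cr, 18 to 31 for day 3 and 15 to 27 for day 7 against day 1 in Cd controls, and 1 to 34 for the day 7 difference between metals, while the other counts stayed within 1.5 times of their values. Of the genes chosen by role, the sign turned in this way only on day 3, where the log2 fold changes spanned -0.0061 to 0.29 for Cdk1 and -0.34 to 0.056 for Ccnb1 after Cd, and -0.070 to 0.30 for Mki67, -0.11 to 0.27 for Cdk1, -0.17 to 0.12 for Ccnb1, -0.059 to 0.28 for Ccna2, -0.0089 to 0.25 for Top2a, -0.091 to 0.087 for Plk1 and -0.21 to 0.068 for Cdc20 after Cr. The number of livers and, for dim probe sets, the signal over background limit what could be detected.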
